A study of Mus musculus with 12 samples.

Results

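Open chromatin was examined around Asah2, Sgms1 and Abcc2, which are genes of mouse chromosome 19, in 4 populations of intestinal epithelial cells. The members are the consensus peaks that overlap either of 2 stretches of the mm9 genome. The window named for Asah2 and Sgms1 runs from 32030000 to 32500000 (470 kb), and the window named for Abcc2 from 43830000 to 43930000 (100 kb). They hold 178 of the 210325 peaks of the series, 145 in the Asah2-Sgms1 window and 33 in the Abcc2 window. Both windows were chosen by measured values of these peak lists, namely regions that only the list of the Sox9 Negative cells holds. The first contains a 100 kb stretch of a fixed grid with as many such regions as any other, and the second contains the widest such region. The number and width of those regions are therefore given as a description, with no test.

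The samples were epithelial cells of C57Bl/6 mice with an EGFP reporter of Sox9, sorted by reporter level into Sox9 Negative, Sox9 Sublow, Sox9 Low and Sox9 High. Crypt cells express the transcription factor Sox9. From earlier studies of such mice, Negative cells are known to be enriched for differentiated cells, Sublow for dividing progenitors, Low for crypt base stem cells and High for enteroendocrine and related secretory cells. Each population had 3 Omni-ATAC libraries, an assay in which Tn5 transposase tags accessible DNA, and is represented by 1 consensus list of peaks, so no value below has a replicate error and no comparison could be tested across libraries. Each population is a mixture of cells defined by a gate on the reporter. The labels of each library give 12000 cells collected. They give neither age nor sex, nor whether separate animals gave the libraries of a population. The lists hold positions and names only. They give no height or depth, so a region missing from a list may have been closed or missed, and width stands in for no measured signal. The identity of the populations was not checked against marker genes, because an mm9 annotation was not used here.

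Asah2 encodes neutral ceramidase, an enzyme of the intestinal brush border that cleaves ceramide to sphingosine and takes part in the digestion of dietary sphingolipids. Sgms1 encodes sphingomyelin synthase, a Golgi enzyme that makes sphingomyelin from ceramide and phosphatidylcholine, so the adjacent genes encode enzymes that both use ceramide. Abcc2 encodes MRP2, an ATP-driven pump that exports glutathione, glucuronide and other conjugates across the apical membrane of enterocytes and hepatocytes. In the RefSeq gene table for GRCm38.p6, Asah2 stands between A1cf and Sgms1, Sgms1 between Asah2 and Minpp1, and Abcc2 between Cutc and Dnmbp. A1cf encodes a partner of the apolipoprotein B editing enzyme, Minpp1 an inositol polyphosphate phosphatase, and Dnmbp an activator of the small GTPase Cdc42. No mm9 positions of these genes were used here, so the names of the windows are those of the rule and no peak is placed in a promoter, exon or intron.

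The promoters printed below for the 3 genes differed in base composition and in a short motif. They are shown because they are the regulatory sequence known for each gene, and they could not be placed relative to the peaks, since they are on another build. All 3 genes matched the RefSeq promoter table (GRCm38.p6, 300 bases each, 32851 promoters), with 1 promoter each for Asah2 and Abcc2 and 4 for Sgms1, of which the farthest upstream is printed. They lie on GRCm38.p6 at chr19:32103091-32103390 (minus strand, Asah2), chr19:32388463-32388762 (minus strand, Sgms1) and chr19:43782058-43782357 (plus strand, Abcc2), positions that cannot be compared with the mm9 positions of the peaks. Capitals mark GTTAAC or GTTAAT, short forms of the half-site bound by the hepatocyte nuclear factor HNF1.
Asah2 promoter: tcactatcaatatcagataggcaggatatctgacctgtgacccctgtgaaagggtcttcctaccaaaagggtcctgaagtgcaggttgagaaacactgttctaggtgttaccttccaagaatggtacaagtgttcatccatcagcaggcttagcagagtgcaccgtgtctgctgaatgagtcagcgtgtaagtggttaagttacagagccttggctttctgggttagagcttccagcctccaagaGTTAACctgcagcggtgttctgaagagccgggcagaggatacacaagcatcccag
Sgms1 promoter: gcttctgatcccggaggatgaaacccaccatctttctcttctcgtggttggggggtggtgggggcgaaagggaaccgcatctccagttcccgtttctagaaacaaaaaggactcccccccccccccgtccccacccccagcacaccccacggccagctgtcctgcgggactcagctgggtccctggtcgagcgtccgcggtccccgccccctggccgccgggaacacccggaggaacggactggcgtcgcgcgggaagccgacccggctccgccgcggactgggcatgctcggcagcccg
Abcc2 promoter: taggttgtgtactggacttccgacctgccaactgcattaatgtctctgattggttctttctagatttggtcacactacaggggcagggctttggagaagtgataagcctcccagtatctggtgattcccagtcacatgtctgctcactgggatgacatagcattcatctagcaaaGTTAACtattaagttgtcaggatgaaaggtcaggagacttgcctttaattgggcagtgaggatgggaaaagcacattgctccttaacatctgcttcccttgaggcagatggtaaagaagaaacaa
GTTAAC, which reads the same on both strands, occurred once in the Asah2 promoter (from base 246 of 300) and once in the Abcc2 promoter (from base 176), against 3.05% of all promoters in the table. It occurred in none of the 4 Sgms1 promoters. The other motifs searched on both strands were GTTAAT (7.10% of all promoters), AGATAA of GATA factors (11.2%), CAAAGTNCA of HNF4 (1.41%) and TTTATNG of CDX factors (10.9%). Only AGATAA and TTTATNG were matched, once each, both in the third Sgms1 promoter, and no matches overlapped. The printed Sgms1 promoter held 28 CG dinucleotides, more than 85.8% of the promoters, whereas the Asah2 promoter held 4 and the Abcc2 promoter 1, against a median of 7. The other Sgms1 promoters held 51, 4 and 13, so the third Sgms1 promoter had as few as the Asah2 promoter. These motifs were chosen after the sequences had been seen, and a match describes letters only.

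When peaks of different lists that overlapped or touched were merged, the Asah2-Sgms1 window held 60 regions, most often of all 4 lists. Negative alone held 11 regions (18.3%), against 6.82% of the 82365 merged regions of the genome and 7.50% of the 2639 on chromosome 19, a difference that the choice of the window fixed. High alone held 13 regions (21.7%), against 16.6% of the genome. With only the widest peaks of each list kept, its share was 9.52%, against 13.63% of the genome. The regions of all 4 lists numbered 19 (31.7%), close to the 33.1% of the genome. Low alone held 1 region (1.67%, against 6.41%) and Sublow alone none (against 2.06%). Negative and Sublow together, without the other two, held 5 regions (8.33%), against 3.17% of the genome. Among the remaining 11, Negative, Sublow and Low shared 4 (6.67%, against 8.92%) and Sublow, Low and High 3 (5%, against 7.49%). Sublow and Low shared 3 (5%, against 7.18%), and Negative, Low and High 1 (1.67%, against 0.357%).

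By list, the Asah2-Sgms1 window held 42 Negative peaks, 37 High peaks, 34 Sublow peaks and 32 Low peaks. The Negative peaks include the 11 Negative-alone regions by which the window was chosen, and 31 are left without them, so their number was partly fixed by that choice. In bases covered the order was different, from 16763 bp for Sublow and 15167 bp for Low to 14202 bp for Negative and 12699 bp for High. Sublow peaks had a median width of 436 bp, Low peaks 414.5 bp, Negative peaks 332.5 bp and High peaks 293 bp, each below the median of its whole list (464, 433, 394 and 383 bp).

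**Figure D1:**
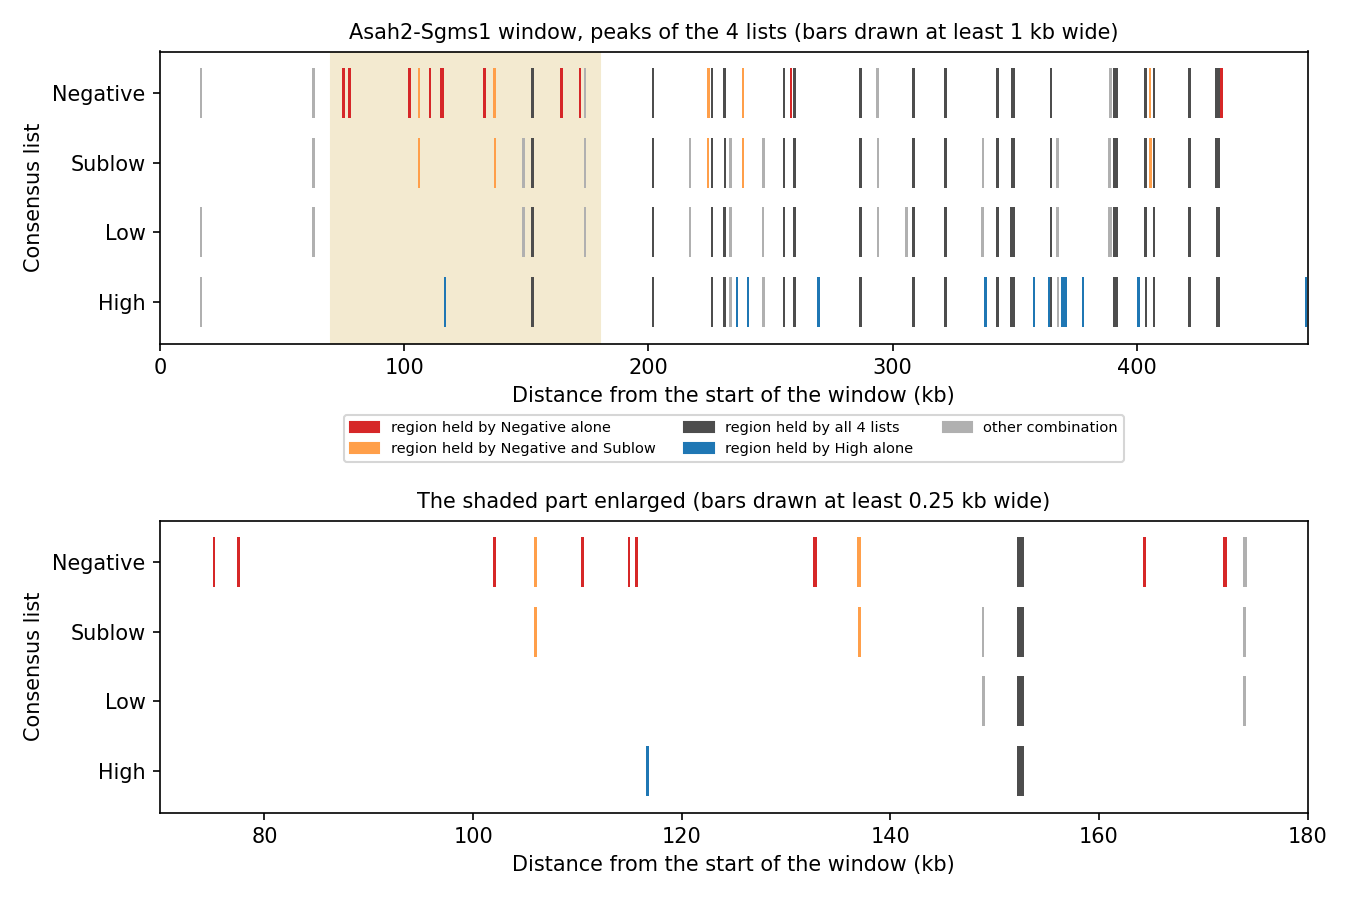
Peaks of the 4 lists (rows) by distance from the start of the Asah2-Sgms1 window in kb, coloured by which lists hold the merged region, with the shaded part enlarged below. Of the 11 regions held by Negative alone, 9 lie in the shaded part, where High has 2 regions and Low 3.

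Most regions held by Negative alone lay near the start of the window, and most of those held by High alone lay farther on. On the 100 kb grid, the first 170 kb of the window (up to 32200000) held 15 regions, of which 8 were held by Negative alone and 1 by High alone. The other 300 kb held 45 regions, of which 3 were held by Negative alone and 12 by High alone. In the first part Negative had 13 regions, Sublow 5, Low 4 and High 3. In the rest High had 33, Sublow 29, and Negative and Low 27 each. Of the 19 regions common to all 4 lists, 1 lay in the first part and 18 in the rest. Over the genome, High alone held 16.6% of the merged regions and all 4 lists 33.1%. The rest held 45 of the 60 regions of the window, so its counts are drawn from more regions. The boundary is that of the grid, and the first part holds the stretch by which the window was chosen, so its 8 Negative-alone regions were fixed by that choice. With 8 of its 15 regions so fixed, few were left for High alone, for all 4 lists or for any list but Negative. Its low counts of these, and the contrast with the rest, were therefore partly set by the same choice. In the rest, the share of Negative-alone regions (6.67%) was near the 6.82% of the genome.

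**Figure D2:**
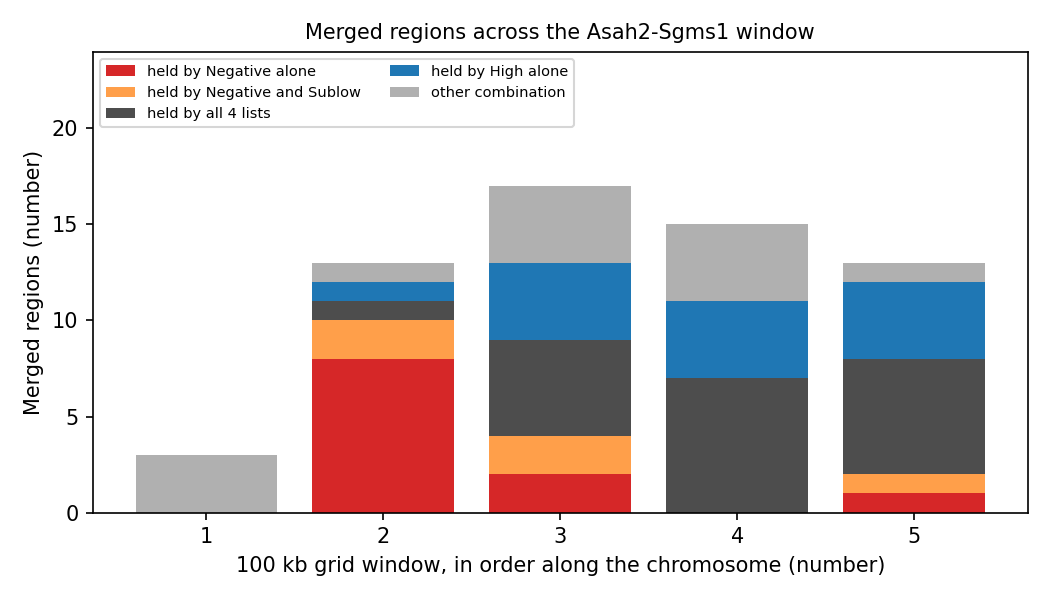
Number of merged regions in the 5 grid windows of 100 kb that span the Asah2-Sgms1 window, split by the lists that hold them. Grid window 2, the stretch by which the Asah2-Sgms1 window was chosen, has 8 regions held by Negative alone and 1 held by High alone. Windows 3 to 5 have 4 held by High alone each. Grid window 1 starts before the Asah2-Sgms1 window and counts 1 region outside it.

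Grid window 2, from 32100001 to 32200000, had 8 Negative-alone regions among 13, and 1 other grid window of the genome (chromosome 19 from 57400001 to 57500000) also had 8. One grid window had 7, 4 had 6 and 14 had 5, so the window lies just above a thin upper tail. With windows started every 10 kb instead, the most was 9, at 5 positions on chromosomes 6 and 19 outside both windows, and the Asah2-Sgms1 window reached 8. Its place as a densest window therefore rests on where the grid starts. Among the other lists, grid window 2 held 4 Sublow regions, 2 Low regions and 2 High regions beside the 11 of Negative. The equally dense window on the same chromosome held 4, 5 and 5 beside 12. Both windows stand out by their 8 Negative-alone regions, which leave few regions for other lists, so these low counts were partly set by the choice.

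The first 3 Negative-alone regions followed one another with no other region between them. They ran from 32105081 to 32105226 (146 bp), from 32107397 to 32107632 (236 bp) and from 32131991 to 32132160 (170 bp), a run of 3 that spanned 27080 bp. The first and second lay 12057 and 14373 bp from the nearest region that another list held. Next came a region of Negative and Sublow, from 32135842 to 32136159, which was 318 bp wide in Negative and 163 bp in Sublow.

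A second group of 3 lay close together and was closed by a region of High alone. Its members ran from 32140412 to 32140579 (168 bp), from 32144820 to 32145041 (222 bp) and from 32145575 to 32145748 (174 bp). The High-alone region ran from 32146600 to 32146832 (233 bp), 851 bp past the last of them, so peaks of the lists at both ends of the reporter range stood side by side without overlapping. It was the only High peak between 32046815 and 32182120.

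The other 5 Negative-alone regions lay farther along the window. One of 418 bp, from 32162574 to 32162991, lay 3830 bp before a region of Negative and Sublow (32166822 to 32167209) that was 388 bp wide in Negative and 317 bp in Sublow. One of 132 bp, from 32194291 to 32194422, and one of 340 bp, from 32201894 to 32202233, followed the first region of all 4 lists with no other region between them. The widest of the 11, 432 bp from 32288132 to 32288563, lay between regions of all 4 lists, 1078 bp from the nearer. The narrowest, 122 bp from 32464671 to 32464792, began 500 bp past the widest region of the window.

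In width the 11 regions were ordinary for regions of their kind. Their median was 174 bp (122 to 432 bp), against 201 bp over all 5620 Negative-alone regions, and 93.8% and 94.6% of the latter were narrower than the regions of 418 and 432 bp. The 31 Negative peaks of the same window that lay in regions of other lists were wider, with a median of 376 bp (115 to 740 bp). For High the same split gave 260 bp for its 13 own regions and 331.5 bp for its 24 other peaks. The median distance of the Negative-alone regions to a region of another list was 3681 bp (500 to 14373 bp), against 3498 bp over the genome, and 2 of 11 (18.2%) lay within 1000 bp, against 19.2%. With peaks of at least 200 bp only, 5 of the 11 were left, and 2 regions of Negative and Sublow joined them because their Sublow peak was narrower than that. The 7 had a median width of 318 bp and a median distance of 1832 bp.

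The 5 regions of Negative and Sublow alone had a median width of 388 bp (278 to 699 bp), against 174 bp for the Negative-alone regions. In 4 of them the Negative peak was the wider. Beside both given above, the region from 32268618 to 32268895 was 278 bp wide in Negative and 137 bp in Sublow, and that from 32435200 to 32435898 was 699 bp in Negative and 237 bp in Sublow. In the fifth, from 32254172 to 32254803, a Sublow peak of 628 bp spanned Negative peaks of 327 and 140 bp.

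Stretches with no region at all broke up the Asah2-Sgms1 window. The longest were 45771 bp from 32046815 to 32092587, 34314 bp from 32464792 to 32499107 and 27354 bp from 32204209 to 32231564. Individual lists had longer ones. High held no region over 99784 bp (32046815 to 32146600), where 8 regions of other lists lay, and Low none over 85746 bp (32093023 to 32178770), where 10 lay. The longest such stretch of Sublow was 42818 bp, with 3 regions of Negative alone in it, and that of Negative was the 45771 bp in which no list held a region.

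The 13 High-alone regions were 105 to 378 bp wide. The widest, 378 bp from 32499107 to 32499484, was the last region of the window, and the next widest were 339 bp (32399525 to 32399863) and 309 bp (32270728 to 32271036). Several were close to one another, such as those from 32299342 to 32299513 and from 32299690 to 32299982, with 176 bp between them. Between 32379692 and 32408133, 5 of the 7 regions were held by High alone, against 16.6% of the merged regions of the genome. The bounds of that stretch were picked after its values were seen, so the count is a description only.

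The widest region of the Asah2-Sgms1 window ran from 32462210 to 32464170 and was held by all 4 lists. Sublow, Low and High covered it with 1 peak each of 1926, 1848 and 1830 bp, whereas Negative covered it with 2 peaks of 740 and 421 bp. Negative had more than 1 peak in 2 of its 40 regions here and in 2.32% of its regions over the genome. After it the widest regions of all 4 lists were 735 bp (32433291 to 32434025) and 719 bp (32255656 to 32256374). In the order Negative, Sublow, Low, High, the widths were 618, 720, 698 and 385 bp in the first and 513, 644, 668 and 181 bp in the second. High thus had the narrowest peak in both, and it did so in 8 of the 18 regions that every list held with a single peak, against 32.7% over the genome.

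Some regions without a Negative peak were wide in the other lists. The region from 32397024 to 32397964 had a Sublow peak of 889 bp, a Low peak of 941 bp and a High peak of 226 bp, and that from 32276566 to 32277476 had a Sublow peak of 810 bp, a Low peak of 549 bp and High peaks of 532 and 97 bp. The third such region, from 32263484 to 32263854, had 240, 371 and 303 bp. Sublow and Low alone held 32366636 to 32367223 (160 and 588 bp), 32246922 to 32247241 (320 and 284 bp) and 32178770 to 32179048 (158 and 279 bp). The single region of Low alone ran from 32335586 to 32335876 (291 bp).

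The regions that High alone lacked included one of 893 bp, from 32418500 to 32419392, where Sublow had 849 bp in 1 peak, Low 2 peaks of 360 and 313 bp, and Negative 305 bp. The others were 523 bp (32323682 to 32324204), 437 bp (32092587 to 32093023) and 397 bp (32203813 to 32204209). Sublow alone was missing from 1 narrow region, from 32046644 to 32046815, with a Negative peak of 169 bp, a Low peak of 158 bp and a High peak of 149 bp. It was the first region of the window, and the nearest region before the edge (32029260 to 32029613, Negative, Sublow and Low) lay 387 bp outside it. Past the other edge the next region was 266 bp, from 32511368 to 32511633, held by High alone.

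Where Negative shared a region of the Asah2-Sgms1 window with another list, its peak was the narrower in most of the regions shared with Sublow or Low and in 9 of 19 shared with High. In regions with 1 peak in each of both lists, the median ratio of Negative to Sublow width was 0.87 over 26 regions (0.865 over 36489 in the genome), and Negative was narrower in 20 of 26 (76.9%, against 77.8%). For Low the ratio was 0.853 over 22 regions (0.872 in the genome), and Negative was narrower in 15 (68.2%, against 74.7%). For High it was 1.063 over 19 regions (0.939 in the genome), with Negative narrower in 9 (47.4%, against 62.0%). That ratio was 0.994 with all regions and summed widths and 0.928 with peaks of at least 200 bp, so its direction was not stable. Of the 40 regions of Negative here, 28 (70%) were also in Sublow, 24 (60%) in Low and 20 (50%) in High, against 84.9%, 79.3% and 64.3% over the genome. These shares fall with the number of Negative-alone regions by which the window was chosen.

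**Figure D3:**
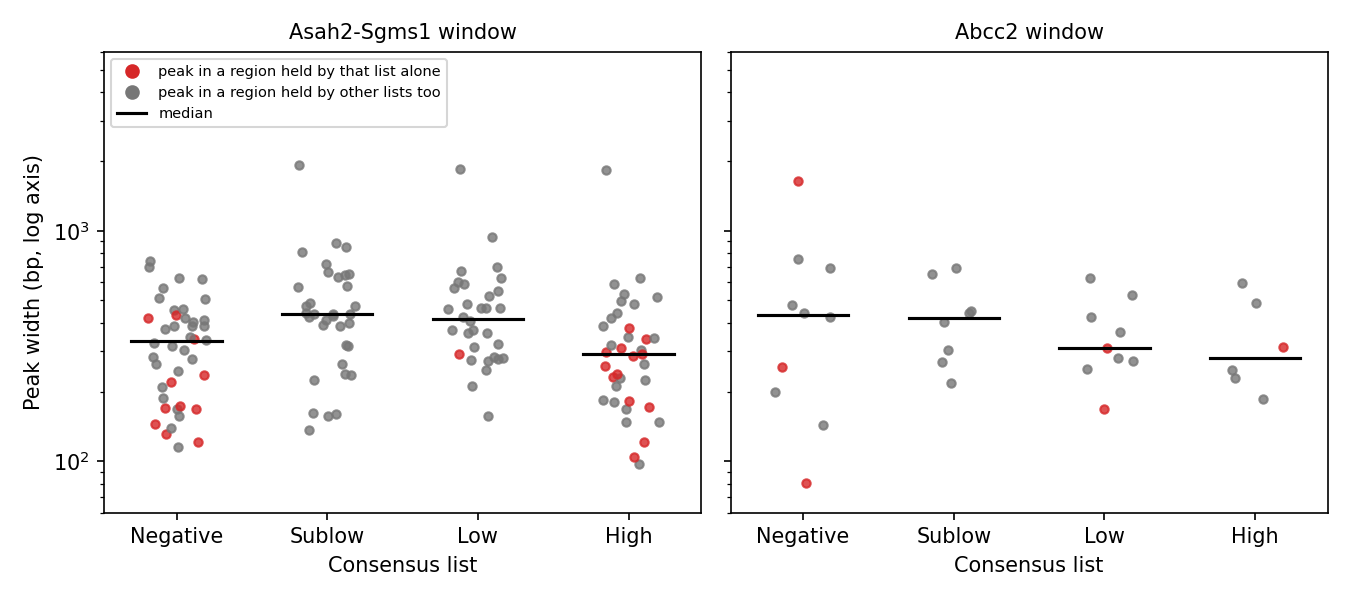
Width of each peak in bp (log axis) by list in both windows, with peaks of regions held by that list alone in red and medians as bars. The Negative-alone region of 1642 bp stands at the top of the Abcc2 panel, above all other peaks there, while the Negative-alone regions of the Asah2-Sgms1 window reach 432 bp.

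The Abcc2 window was marked by a single wide open region of the Negative list with no counterpart in the other lists. It ran on mm9 from 43867170 to 43868811, 1642 bp, as 1 Negative peak. Neither Sublow, Low nor High listed a peak in it, the nearest being 168 bp of Low alone 3031 bp higher (43871843 to 43872010), 314 bp of High alone 5846 bp lower (43861010 to 43861323), and for Sublow a region of all 4 lists 10282 bp lower (43856410 to 43856887). It is the widest of the 5620 Negative-alone regions, which is how the window was chosen. The next widest were 1607 bp on chromosome 6 and 1057 bp on chromosome 3, and the fourth was 998 bp.

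Peaks of that width nearly always lay in regions of all 4 lists. Such sharing needs only 1 bp of overlap, which a wide peak meets more easily than a narrow one. How far width alone gives these shares was not tested. The Negative list held 212 peaks of at least 1642 bp (0.466% of the list), and 211 of them (99.5%) lay in regions of all 4 lists. The one exception was the region in the Abcc2 window. Its own width set the limit and it was chosen as the widest of its kind, so that count of 1 was fixed in advance. The next widest Negative-alone region, of 1607 bp, fell just below the limit. Of peaks as wide in the other lists, 581 of 587 in Sublow, 465 of 469 in Low and 369 of 377 in High lay in regions of all 4 lists, and High alone held 1. The second widest peak of the window, 755 bp in Negative, was less than 0.5 of its width.

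**Figure D4:**
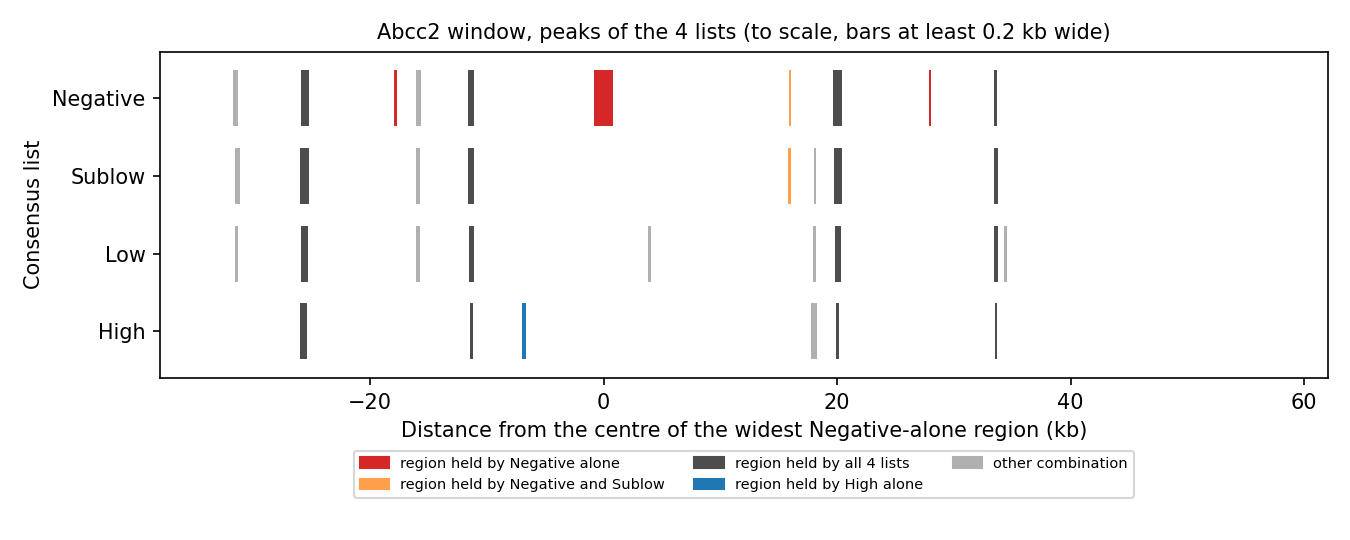
Peaks of the 4 lists (rows) in the Abcc2 window by distance in kb from the centre of the widest Negative-alone region, coloured by which lists hold the merged region. The bar of 1642 bp at 0 has no peak above or below it in the other rows, and the last region of the window ends well before its right edge.

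In all, the Abcc2 window held 14 regions, with 10 Negative peaks, 9 Low peaks, 8 Sublow peaks and 6 High peaks. Negative alone held 3 regions (21.4%, against the 6.82% of the genome given above). The widest of them is the region by which the window was chosen, so that share was partly fixed by the choice. Its exact 95% binomial interval, for counting error only, was 4.66% to 50.8%. All 4 lists held 4 (28.6%, against 33.1% of the genome) and Low alone 2 (14.3%, against 6.41%). High alone held 1 (7.14%, against 16.6%) and Sublow alone none (against 2.06%). Of the other 4, Negative, Sublow and Low shared 2 (14.3%, against 8.92%) and Negative and Sublow 1 (7.14%, against 3.17%). Sublow, Low and High shared the remaining 1 (7.14%, against 7.49%). Negative covered 5110 bp, Sublow 3423 bp, Low 3221 bp and High 2065 bp, and the one wide region made up 1642 bp of the first. With the window made 50 kb longer on each side, no further Negative-alone region was gained, and the 3 were then 10.7% of 28 regions.

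Before the wide region, the Abcc2 window opened with a region of Negative, Sublow and Low from 43836257 to 43836837, with widths of 442, 440 and 251 bp. The nearest region before the edge, of all 4 lists, ended 1783 bp outside it. A region of all 4 lists followed, from 43842011 to 43842717, with widths, from Negative to High, of 687, 688, 623 and 597 bp. Then came the second Negative-alone region, 258 bp from 43850024 to 43850281, which lay 1618 bp before a region of Negative, Sublow and Low (43851900 to 43852331) of 423, 401 and 365 bp. The region of all 4 lists from 43856410 to 43856887 had widths of 478, 449, 423 and 231 bp in that order. Apart from the High-alone region given above, each region before the wide one thus had a peak in Negative.

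Beyond the wide region, 11733 bp without any region followed the Low peak. Negative and Sublow then shared a region from 43883744 to 43884014 (144 and 271 bp). Negative lacked the next, from 43885786 to 43886273, with a Sublow peak of 218 bp, a Low peak of 274 bp and a High peak of 488 bp. It was the only region of the window where High had the widest peak beside another list. The region of all 4 lists from 43887627 to 43888395 had, in the same order, 755, 651, 526 and 249 bp, narrowing from Negative to High. The third Negative-alone region was 81 bp, from 43895911 to 43895991, and only 0.605% of all Negative-alone regions were narrower. The last regions were one of all 4 lists (43901468 to 43901777, with 200, 305, 281 and 186 bp) and one of Low alone (43902250 to 43902559, 310 bp). No region lay in the last 27441 bp of the window, and the first beyond it was one of Sublow and Low 1951 bp past the edge.

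In the 4 regions of the Abcc2 window that all lists held, High had the narrowest peak each time and Negative never did. The Negative peaks had a median width of 582.5 bp, the Sublow peaks 550 bp, the Low peaks 474.5 bp and the High peaks 240 bp. Over the 25643 such regions of the genome with 1 peak per list, Negative was the narrowest or tied in 56.9% and High in 32.7%. The ratio of Negative to High width in these 4 regions had a median of 1.54 and was above 1 in each, against 0.939 over the genome. The ratio to Low was 1.14 over 6 regions and that to Sublow 1.005 over 7. These widths did not enter the choice of the window, but 4 regions are few and are not replicates, so this was not tested.

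**Figure D5:**
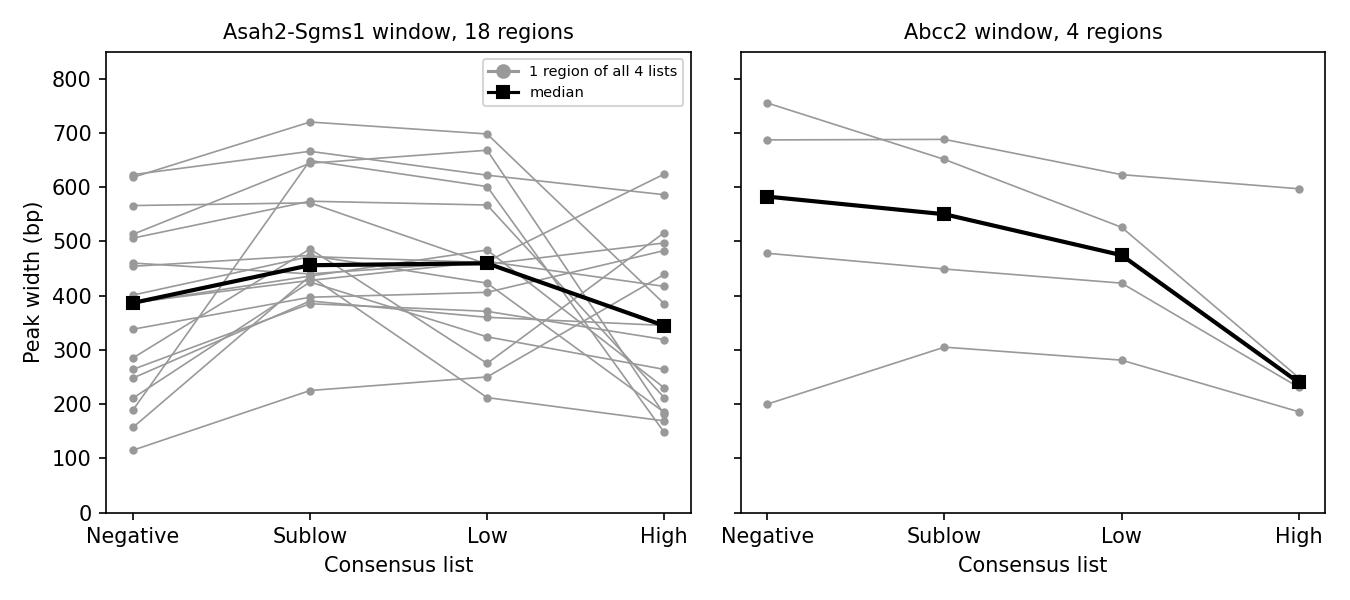
Peak width in bp in each list for the regions that every list held with a single peak, 18 in the Asah2-Sgms1 window and 4 in the Abcc2 window; grey lines join the widths of 1 region and black squares are medians. Sublow and Low have the highest medians in the first panel, whereas the medians fall from 582.5 bp in Negative to 240 bp in High in the second.

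In the Asah2-Sgms1 window High again had the lowest median, but Negative did not have the highest. In the 18 regions of that window that every list held with a single peak, the medians from Negative to High were 386.5, 456, 459.5 and 344.5 bp. Sublow had the widest or a tied peak in 11 of 18 (61.1%, against 39.2% over the genome) and Negative in none (against 8.95%). Negative was narrowest in 7 and High in 8. The difference between the windows rests on only 4 regions in the Abcc2 window and was not tested.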

How the data were processed

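The members and lists were chosen with earlier results of these data known. Per the submitters' processing notes, the authors used MACS2 2.1.2, Bowtie2 2.3.4, deepTools 2.5.2, Trim Galore 0.4.3 and Picard 2.10.3 on mm9; their roles and settings, any shift for the Tn5 offset, and the rule that joined the 3 libraries of a population are not given in the sources used here. Each population has 1 peak list that the authors deposited, with positions and names and no counts or scores. Some peaks have a start equal to the end (4 in High), so positions were read as counted from 1 with the end included. Peaks overlapping by at least 1 bp, or touching, were merged (Python 3.11.15, numpy 2.4.6, scipy 1.17.1, matplotlib 3.10.9), and a region counted in a window if it overlapped it. Merging was tested on simulated regions that lay well apart with at most 1 peak per list. Split peaks and regions close together were not covered by that simulation. Regions were placed on the 100 kb grid by their centre. Every Negative-alone region, every Abcc2 region and the 3 widest regions of each other pattern in the Asah2-Sgms1 window were named by rule; some others were named after their values were seen. Planned lists of other sphingolipid, transporter and marker genes were not used, since an mm9 annotation was not used here. Depth is unknown.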

Additional observations from a re-analysis of the deposited data

How the results depend on the processing

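No paired analysis was possible because the libraries of a population were joined into 1 list, which also meant that no library could be left out. A share was taken as moved outside its exact 95% binomial interval, which covers counting error only, and other values when they changed over 1.5-fold. Of 60 alternative values of the results that answer a comparison, 51 stayed within these limits and 9 did not. With a reciprocal overlap of 50%, regions of all 4 lists were 17.3% of the Asah2-Sgms1 window (24.8% of the genome). With peaks of at least 200 bp, that window had 7 Negative-alone regions (14.3% of 49, against 5.52% of the genome). They had a median width of 318 bp and a median distance of 1832 bp. The Abcc2 window then had a median Negative-alone width of 950 bp, from 2 regions (16.7% of 12). With the widest peaks of each list only (22730), the Asah2-Sgms1 window had 6 regions of Negative alone (28.57%, against 10.55% of the genome). High alone held 2 there (9.52%, against 13.63%) and all 4 lists 9.52% (against 39.99%). Negative alone held 57.1% of the 7 regions of the Abcc2 window, against the same 10.55%. Lists shortened by width hold fewer peaks by construction, and a region counts as held by 1 list where the narrower peaks of the others were dropped. Of 72 values per list, 29 moved, under the widest peaks or the longer windows. Depth is unknown, so a missing peak may be a missed one.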
